A study of Ursus arctos with 12 samples.

Results

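The 10 genes described here encode proteins that buffer ATP in muscle through creatine and through the purine nucleotides, and they were taken by gene symbol: CKM, CKB, CKMT2, GATM, GAMT, SLC6A8, AMPD1, AMPD3, AK1 and ADSL. All 10 had a row among the 30249 genes of the count table, and all 10 were among the 17290 genes with at least 30 reads over the libraries, which were tested. The libraries came from vastus lateralis, a thigh muscle, of 6 free-ranging brown bears (Ursus arctos) aged 2 to 3 years. Each bear was biopsied in winter, while hibernating, and again in summer, while active, which gave 6 winter and 6 summer libraries. No group received a treatment, and season, food intake, body temperature and activity changed together in these wild animals, so their parts in a difference cannot be told apart. A biopsy holds fibres, vessels, nerve, fat and connective tissue, and in such bulk RNA fewer cells of a type and less RNA per cell cannot be told apart either.

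Between 16742406 and 32140160 reads per library were counted on genes. The myofibre markers were present, with 10 of 10 tested and a summed level of 51752 to 81039 CPM (counts-per-million, scaled by TMM) in summer and 60085 to 72537 CPM in winter. Genes of MYH1, MYH2, MYH4 and MYH7 were not among the symbols of the table, so fibre type was read from other markers. The winter library of bear 1509 stood apart in peripheral nerve and Schwann cell markers, which summed to 127 CPM there against 10.2 to 30.1 CPM in the other winter libraries.

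Creatine kinases move a phosphate group between ATP and creatine, so that a muscle fibre can refill its ATP at once when work begins. CKM is the cytosolic enzyme of muscle, CKB the cytosolic enzyme known from brain and smooth muscle, and CKMT2 the enzyme in the mitochondria of striated muscle. Creatine itself is built from arginine and glycine by GATM and then methylated by GAMT, and SLC6A8 carries it into cells. When ATP is used faster than it is made, AK1 joins ADP molecules into ATP and AMP, and AMPD1 or AMPD3 removes the amino group of AMP to give IMP. ADSL belongs to the purine nucleotide cycle, which turns IMP back to AMP, and also to the synthesis of new purines.

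In the muscles of the hibernating bear, GATM and AMPD1 were higher than in summer and CKB, CKMT2, GAMT and AK1 were lower, while CKM, SLC6A8, AMPD3 and ADSL did not pass the test. Thus 6 of the 10 genes were called at an adjusted p below 0.05, 2 higher and 4 lower. The test was edgeR's quasi-likelihood test with season as the only term, which leaves the pairing by bear aside. Among all genes tested the same rule called 39.5%, 19.6% higher and 19.9% lower (a difference in share from the 10 genes was not tested). At the stricter limits of 0.01 for the adjusted p and of 1.3 or 0.77 for the fold, 5 remained, 1 higher and 4 lower, where this rule called 24.0% of all genes. With a replicate block for bear, which pairs the seasons, 2 of the 10 were higher and 5 lower at 0.05. AMPD3 was the gene added (adjusted p = 0.0464 in edgeR). That fit called 3392 of the 17290 genes tested higher and 3663 lower. The median log2 fold change of the 10 genes was −0.31, and that of all genes tested was −0.0021 with quartiles of −0.47 and 0.45. The winter and summer levels of 2 of the 10, CKMT2 and GATM, did not overlap, as for 17.3% of all genes, and 6 of the 10 lay on the same side in 6 of 6 bears (1 higher in winter and 5 lower), as did 37.4% of all genes (18.4% higher and 19.0% lower). Levels below are in CPM, which are not divided by gene length, so they compare libraries and not genes.

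**Figure D1:**
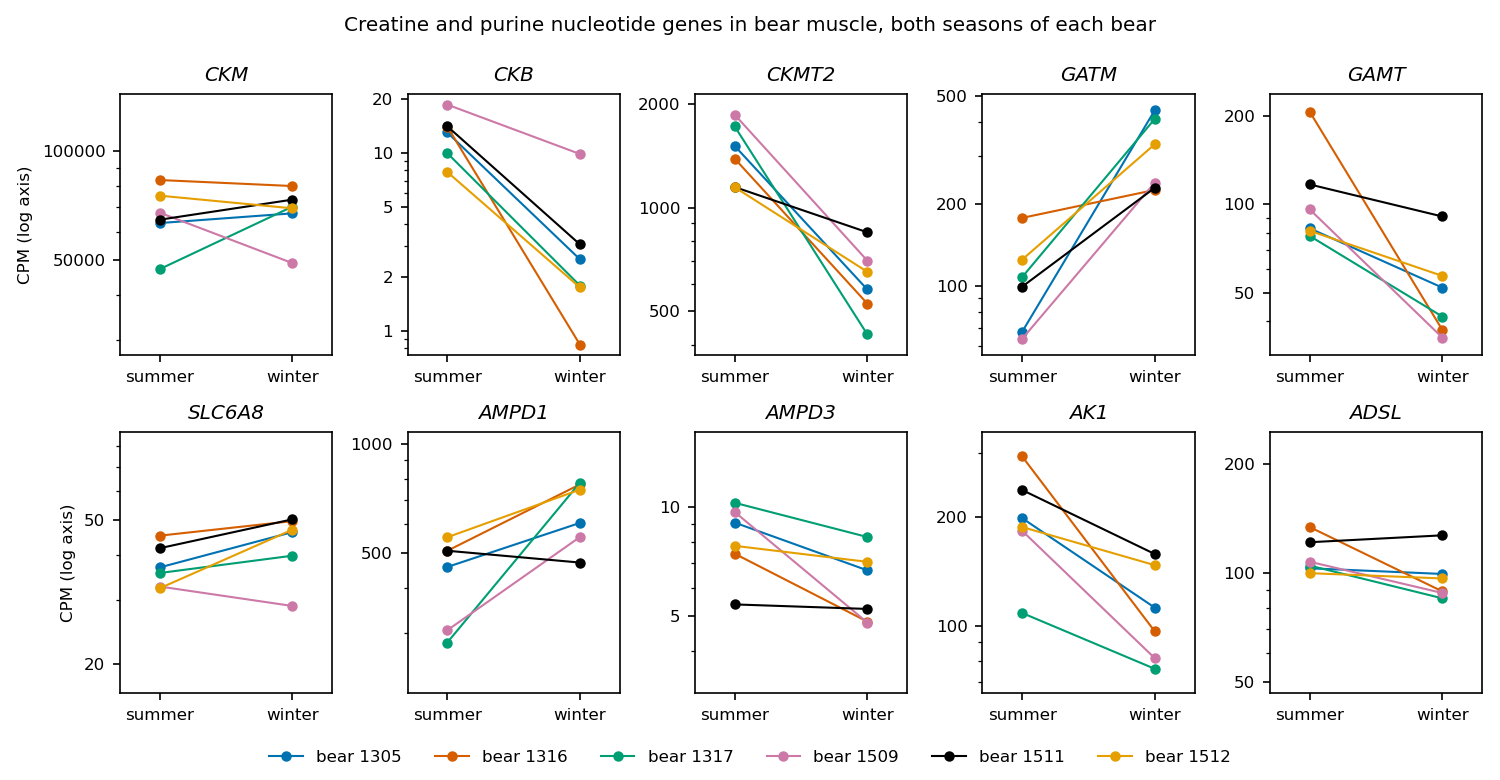
Level of each of the 10 genes in CPM, on a log axis that differs between panels, in the summer and winter library of each bear, with a line joining the 2 libraries of a bear. The lines of GATM rise in 6 of 6 bears and those of CKB, CKMT2, GAMT and AK1 fall in 6 of 6, while those of CKM cross.

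CKM drew more reads than any other gene in 12 of 12 libraries. It held 5.39 to 7.75% of the reads of a summer library and 5.31 to 7.51% of those of a winter library. In summer its lowest, median and highest levels were 47260, 66207 and 83340 CPM, and in winter they were 49096, 69967 and 80213 CPM. The seasons overlapped over nearly their whole range, and 3 bears were higher in winter and 3 lower. The log2 fold change was 0.03 (standard error, SE, 0.18, adjusted p = 0.91), with a 95% interval from −0.36 to 0.42, that is, from 0.777 to 1.34 in fold. The sign turned with library totals in place of TMM (−0.046), without bear 1317 (−0.060) and without bear 1511 (−0.00037), so that no direction can be given. The lowest winter level, 49096 CPM, was in bear 1509, whose other library lay at 67680 CPM in summer.

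CKMT2 was lower in every winter library than in any summer library. Its lowest, median and highest levels were 1145, 1446 and 1857 CPM in summer and 429, 615 and 848 CPM in winter. CKMT2 differed by −1.23 on the log2 scale (SE 0.18, adjusted p = 0.000144), a level 2.34-fold lower in winter, and single bears ranged from −2.0 in bear 1317 to −0.44 in bear 1511. Leaving out any bear kept it between −1.40 and −1.09. The ratio of CKMT2 to CKM reads, which does not depend on how libraries are scaled, fell by 1.27 ± 0.72 on the log2 scale (SD, n = 6 bears) and in 6 of 6 bears. In an exact two-sided sign-flip permutation test over the bears this gave p = 0.0312, the smallest p that 6 pairs allow (0.0469 adjusted over the 3 ratios tested). Mitochondrial creatine kinase reads thus fell relative to those of the cytosolic muscle enzyme. Slow fibre markers, of which 1 of 9 was called higher and 1 lower (2 and 1 in the fit with a replicate block for bear), summed to 11861 to 24378 CPM in summer and 13825 to 21248 CPM in winter, ranges that overlapped.

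CKB was counted at 200 to 426 reads per summer library and 20 to 179 per winter library, and it fell furthest of the 10 genes. Its lowest, median and highest levels were 7.83, 13.6 and 18.7 CPM in summer and 0.84, 2.17 and 9.88 CPM in winter. The seasons overlapped through the winter library of bear 1509, at 9.88 CPM, since the other winter libraries lay between 0.84 and 3.07 CPM, below every summer library. The fitted change was −1.98 on the log2 scale (SE 0.46, adjusted p = 0.00395), 3.95-fold lower in winter, with single bears from −3.93 in bear 1316 to −0.92 in bear 1509. Without bear 1509 it was −2.56, without its winter library alone −2.70 (6.52-fold lower), and −2.29 in the fit with a replicate block for bear (adjusted p = 0.000289). The ratio of CKB to CKM reads fell in 6 of 6 bears, by 2.40 ± 1.18 on the log2 scale (SD, n = 6 bears, exact sign-flip permutation p = 0.0312, adjusted 0.0469).

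Because CKM had far more reads than CKB, reads of CKM placed on CKB would matter for the count of CKB. In summer 10.4 to 27.6 CKB reads were counted per 100000 CKM reads, and in winter 1.05 to 20.1. If every CKB read of the library with the lowest share had come from CKM, and CKM reads were misplaced equally often elsewhere, 11.4 to 20.2 reads of a summer library would be misplaced, against the 200 or more counted. The same share would give 9.32 to 22.4 reads in a winter library, where the counts of CKB were 20 to 179. The winter level of CKB is therefore the less certain of its levels.

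CKB is known from brain and smooth muscle, so smooth muscle and nerve markers are given beside it. Of the 8 smooth muscle and pericyte markers 4 were lower in winter and 0 higher in edgeR, and their summed level was 561 to 739 CPM in summer and 338 to 401 CPM in winter. With p values left unadjusted (limit 0.05) 6 were lower and 0 higher, and in DESeq2 4 were lower and 0 higher. Lists of other cells were lower too: 6 of 8 fibroblast markers, and 5 of 8 endothelial markers with 1 higher. Of the 8 nerve markers 2 were lower in winter, 0 higher and 6 not called. Their median log2 fold change was −0.59, and it turned to 0.17 without bear 1305. They summed to 127 CPM in the winter library of bear 1509, where CKB had its highest winter level. CKMT1B, the mitochondrial creatine kinase of other tissues, was counted at 84 reads in that library and at 0 to 12 reads in the other 11. The part of smooth muscle or nerve cells in the level of CKB was not tested.

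**Figure D2:**
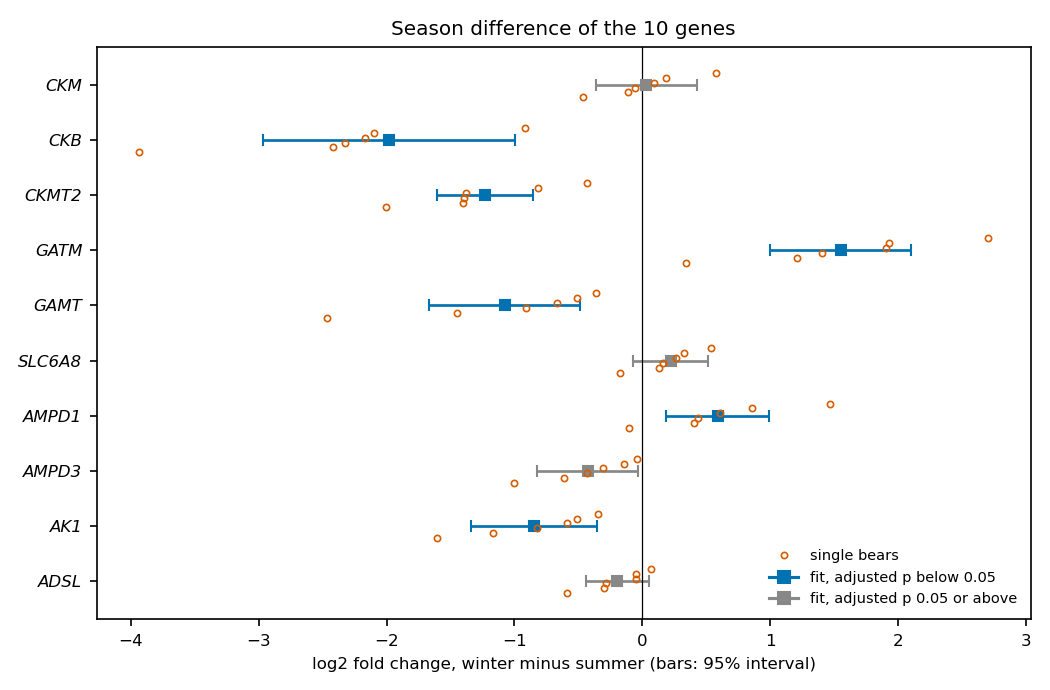
Winter minus summer log2 fold change of the 10 genes, with squares for the fit and bars for its 95% interval, blue where the adjusted p was below 0.05, and open circles for single bears. CKB, CKMT2, GAMT and AK1 lie left of 0 with their whole interval and GATM and AMPD1 right of it, and the interval of AMPD3 ends just below 0 although its adjusted p was 0.0798.

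The enzymes of creatine synthesis moved in opposite directions. GATM, which makes guanidinoacetate from arginine and glycine, had its lowest, median and highest levels at 63.9, 104 and 178 CPM in summer and at 225, 286 and 442 CPM in winter. Every winter library lay above every summer library. The log2 fold change was 1.55 (SE 0.26, adjusted p = 0.000423), 2.93-fold higher in winter, and it ran from 0.34 in bear 1316, which had the highest summer level, to 2.70 in bear 1305. Without bear 1305 the log2 fold change was 1.31, and without bear 1316 it was 1.84. GATM is known above all from kidney, and of the kidney and liver markers UMOD and AQP2 had 0 reads in the 12 libraries, while SLC34A1 had 4 reads in all. NPHS1, a kidney gene of the same list, had 50 to 145 reads per library and was not called, at 0.15 (adjusted p = 0.621). ALB and APOA1, liver genes of the same list, were at 9.57 and 50.6 CPM in summer (medians) and at 4.13 and 11.7 CPM in winter, with log2 fold changes of −1.12 (adjusted p = 0.000217) and −2.01 (adjusted p = 3.98e-05).

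GAMT, which methylates guanidinoacetate to creatine, had its lowest, median and highest levels at 78.0, 89.4 and 207 CPM in summer and at 35.2, 46.7 and 90.9 CPM in winter. The seasons overlapped only in the winter library of bear 1511, at 90.9 CPM. GAMT differed by −1.08 on the log2 scale (SE 0.28, adjusted p = 0.00726), 2.11-fold lower in winter, with single bears from −2.47 in bear 1316 to −0.36 in bear 1511. The summer library of bear 1316 lay at 207 CPM and the other summer libraries at 78.0 to 117 CPM. Without bear 1316 the log2 fold change was −0.71 (adjusted p = 0.0297). In that summer library the adipocyte markers summed to 2255 CPM and in the others to 1303 to 1453 CPM. Over both seasons 2 of 7 adipocyte markers, FABP4 and GPD1, were lower in winter. LEP, with 0 to 19 reads per library, was the 1 higher (0 in the fit with a replicate block for bear). The summed level was 524 to 1297 CPM in winter. FABP4 and GPD1 weighed most in the sums, with summer medians of 418 and 964 CPM. ADIPOQ and PLIN1, with summer medians of 32.3 and 5.37 CPM, were not called (adjusted p = 0.447 and 0.428). The median log2 fold change of the adipocyte markers, −0.93, turned to 0.57 without bear 1316 and was −1.90 without bear 1511. Whether fat in a biopsy bears on GAMT was not tested.

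As reads within a library, GATM had 0.665 to 1.54 times the reads of GAMT in summer and 2.53 to 9.93 times in winter. The ratio rose by 2.65 ± 0.75 on the log2 scale (SD, n = 6 bears), 6.26-fold, with single bears from 1.57 to 3.37 and the seasons apart. This ratio was formed after the values of both genes had been seen, so it carries no test.

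SLC6A8, the creatine transporter, had its lowest, median and highest levels at 32.3, 36.3 and 45.2 CPM in summer and at 28.9, 46.6 and 50.1 CPM in winter. It lay higher in winter in 5 of 6 bears, but the seasons overlapped and the difference was within the error. The log2 fold change was 0.22 (SE 0.14, adjusted p = 0.217) with a 95% interval from −0.07 to 0.51, so that a level up to 1.43-fold higher in winter lay within it. Bear 1509 was the exception, at −0.18. Without its winter library alone the log2 fold change was 0.32 and the adjusted p was 0.034, and without both its libraries 0.29 and 0.0625. SLC16A12, a creatine transporter of other tissues, had 5 to 26 reads per library and was not called, at −0.12 (adjusted p = 0.848).

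**Figure D3:**
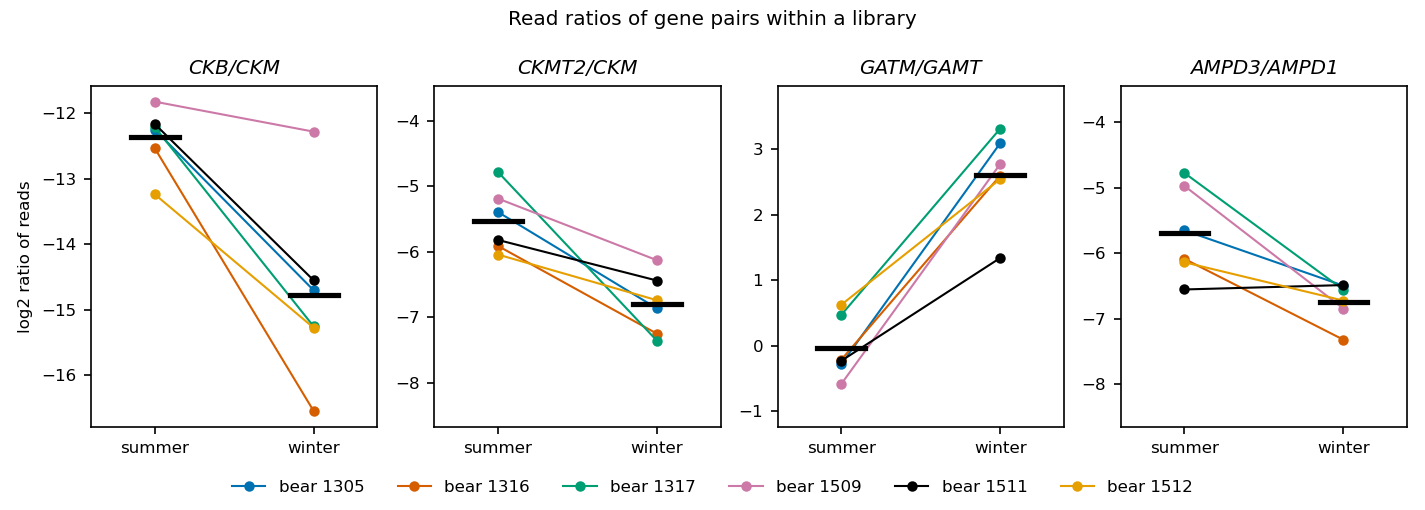
Log2 ratio of the reads of 2 genes in the same library, by season, with a line for each bear and a black bar for the mean of the 6 libraries. CKB/CKM and CKMT2/CKM fall in 6 of 6 bears, GATM/GAMT rises in 6 of 6, and AMPD3/AMPD1 falls in 5 of 6.

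Among the enzymes that act on AMP, AMPD1 and AK1 moved in opposite directions. AMPD1, the AMP deaminase of skeletal muscle, had its lowest, median and highest levels at 282, 481 and 551 CPM in summer and at 469, 675 and 780 CPM in winter. The seasons overlapped, and 5 of 6 bears were higher in winter. The log2 fold change was 0.59 (SE 0.19, adjusted p = 0.0225), 1.51-fold higher in winter, from −0.11 in bear 1511 to 1.47 in bear 1317. The call rested on single bears: the adjusted p was 0.052 without bear 1305 and 0.0822 without bear 1317, where the log2 fold change was 0.44. In bears 1317 and 1509 the summer levels, 282 and 305 CPM, were the lowest of the 12 libraries, and in the other bears they were 456 to 551 CPM.

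AMPD3, the AMP deaminase known from red blood cells and other tissues, was counted at only 87 to 249 reads per library. Its lowest, median and highest levels were 5.39, 8.45 and 10.3 CPM in summer and 4.80, 5.96 and 8.28 CPM in winter. It lay lower in winter in 6 of 6 bears, with a log2 fold change of −0.43 (SE 0.19), but the adjusted p was 0.0798. A replicate block for bear in edgeR gave the same log2 fold change, −0.43, and an adjusted p of 0.0464, and with library totals the adjusted p was 0.0454. DESeq2 with that block gave 0.0529. Of the 10 erythroid markers 3 were tested, and they summed to 0.763 to 5.04 CPM in summer and 0.286 to 2.92 CPM in winter. HBM had 12 reads in all and HEMGN 1. EPB42, a protein of the red cell membrane, was the erythroid marker called, with 11 to 71 reads in a summer library and 0 to 8 in a winter one, lower in 6 of 6 bears (adjusted p = 0.00308), as AMPD3 was. The other erythroid markers tested were not called. ALAS2 was at 0.25 (adjusted p = 0.792), higher in winter in 4 bears and lower in 2. AHSP was at −0.86 (adjusted p = 0.493), higher in 3 bears and lower in 3. The part of red cells in the level of AMPD3 was not tested, and haemoglobin genes HBB and HBA were not among the symbols of the table.

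The ratio of AMPD3 to AMPD1 reads fell by 1.04 ± 0.74 on the log2 scale (SD, n = 6 bears) and in 5 of 6 bears. The exact two-sided sign-flip permutation test gave p = 0.0625 (0.0625 adjusted), above 0.05. In bear 1511 the ratio changed by 0.07 and in the bear with the largest change it fell by 1.87. When season labels were permuted over the 12 libraries without regard to the bear, the adjusted p was 0.00649.

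AK1, the cytosolic adenylate kinase of muscle, had its lowest, median and highest levels at 108, 193 and 294 CPM in summer and at 76.0, 104 and 158 CPM in winter. The summer library of bear 1317, at 108 CPM, lay among the winter libraries, and within each bear AK1 was lower in winter. Its fitted change was −0.85 on the log2 scale (SE 0.23, adjusted p = 0.00982), 1.80-fold lower in winter, from −1.61 in bear 1316 to −0.35 in bear 1512. Without bear 1316 it was −0.67 and the adjusted p was 0.0489. AK1 is known to be abundant in fast fibres, and of the 9 fast fibre markers tested 4 were lower in winter and 0 higher. Those lower included ACTN3 (log2 fold change −0.75, adjusted p = 0.00909) and MYBPC2 (−1.24, adjusted p = 7.18e-05). MYLPF of the same list was not called, at 0.27 (adjusted p = 0.23), and lay higher in winter in 5 bears and lower in 1. With p values left unadjusted (limit 0.05) 5 were lower and 0 higher, and in DESeq2 5 were lower and 0 higher. The fast fibre markers summed to 36949 CPM in the summer library of bear 1317, the lowest of the 12, and to 73817 CPM in that of bear 1316, the highest, where AK1 too had its lowest and highest summer levels. In winter they summed to 41294 to 51122 CPM, within the summer range. In bear 1317 alone their sum rose from summer to winter, to 44997 CPM, while AK1 fell there to 76.0 CPM, its lowest level. The part of fast fibres in the level of AK1 was not tested.

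ADSL, adenylosuccinate lyase, had its lowest, median and highest levels at 100.05, 106 and 134 CPM in summer and at 85.3, 92.9 and 127 CPM in winter. It lay lower in winter in 5 of 6 bears, from −0.59 in bear 1316 to 0.06 in bear 1511 on the log2 scale, and the difference did not pass the test. ADSL differed by −0.20 on the log2 scale (SE 0.11, adjusted p = 0.186) with a 95% interval from −0.44 to 0.05. Its partner in the purine nucleotide cycle of muscle, adenylosuccinate synthase 1, is listed under its older symbol ADSSL1. ADSSL1 fell from a median of 419 CPM in summer to 272 CPM in winter, with no overlap of the seasons, at a log2 fold change of −0.58 (SE 0.11, adjusted p = 0.000818) and in 6 of 6 bears. Of the 3 steps of that cycle in muscle, AMP deaminase (AMPD1) was thus higher in winter, adenylosuccinate synthase (ADSSL1) was lower and the lyase (ADSL) did not pass the test. The call of AMPD1 was lost without bear 1305 or bear 1317, while that of ADSSL1 held with any bear left out. ADSS, the synthase of other tissues, and AMPD2 were not called, at 0.06 (adjusted p = 0.629) and −0.06 (adjusted p = 0.768).

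To place the 10 genes in their pathways, 61 other gene symbols of creatine and purine metabolism were grouped by role, of which 50 were tested. Of these 8 were higher and 11 lower in winter, 38% of the 50, with a median log2 fold change of −0.02. The share was close to the 39.5% of all genes. With a stricter rule, an adjusted p below 0.01 with the fold limits, 8 were higher and 6 lower.

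Of the 7 other adenylate kinases tested, 1 was higher and 2 were lower. AK7, an adenylate kinase of motile cilia, rose from a median of 1.14 to 2.86 CPM (log2 fold change 1.23, standard error 0.26, adjusted p = 0.00191). AK3, the mitochondrial GTP:AMP kinase, fell from 6.25 to 4.40 CPM at −0.50 (adjusted p = 0.0276), but the call was lost when bear 1316 (adjusted p = 0.0888), 1317 (0.0807), 1512 (0.0732) or 1305 (0.0647) was left out. The median of the 7 was −0.50, and 4 of them were not called.

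Of the 9 genes of de novo purine synthesis 1 was higher and 1 lower, with a median log2 fold change of 0.0041. PRPS1, which makes the phosphoribosyl donor, fell from 53.0 to 37.8 CPM (log2 fold change −0.45, adjusted p = 0.000787), and PRPSAP1, a protein associated with that enzyme, rose from 19.7 to 26.9 CPM (0.46, adjusted p = 0.00285). In the guanine nucleotide branch IMPDH2 was the only one of 6 genes called. IMPDH2, which commits IMP to guanine nucleotides, rose from a median of 360 CPM in summer to 725 CPM in winter, without overlap and in 6 of 6 bears (log2 fold change 1.02, standard error 0.12, adjusted p = 3.98e-05). Leaving out any bear kept it between 0.96 and 1.08. IMP, its substrate, is the product of AMPD1.

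All 3 genes of purine salvage were called. HPRT1, which recovers hypoxanthine and guanine, rose from 38.6 to 50.8 CPM (log2 fold change 0.43, adjusted p = 0.00354). APRT, which recovers adenine, fell from 10.6 to 4.6 CPM (−0.97, adjusted p = 0.0199), but leaving out bear 1305 (adjusted p = 0.0533) or bear 1509 (0.0734) ended the call. Adenosine kinase, ADK, named after its value was seen, fell from 86.4 to 43.2 CPM (−0.96, standard error 0.16, adjusted p = 0.000494), in 6 of 6 bears and with no overlap of the seasons.

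Among the 11 tested genes of nucleotide and nucleoside breakdown, 1 was higher and 3 were lower. NT5C2, a cytosolic nucleotidase that acts on IMP and GMP, rose from 44.4 to 80.3 CPM (log2 fold change 0.72, adjusted p = 0.000947). NT5E, the cell surface nucleotidase CD73 that forms adenosine outside the cell, fell from 51.3 to 14.7 CPM (−1.73, standard error 0.22, adjusted p = 6.66e-05), in 6 of 6 bears and with no overlap. NT5E is known from fibroblasts and endothelium, and of the fibroblast markers 6 of 8 were lower in winter, with a summed level of 4248 to 11437 CPM in summer and 286 to 1708 CPM in winter, and 5 of 8 endothelial markers were lower and 1, CLDN5, was higher (0.81, adjusted p = 0.0295), with 640 to 964 CPM in summer and 440 to 504 CPM in winter. Their part in the fall of NT5E was not tested. The other genes called lower, NT5C3B (−0.33, adjusted p = 0.0388) and XDH, which makes uric acid (−0.48, adjusted p = 0.0422), were named after their values were seen. XDH was not called in the fit with a replicate block for bear (adjusted p = 0.079), which left 2 genes of the list lower. Leaving out bear 1305, 1317, 1509 or 1512 also ended the call of XDH (adjusted p 0.067 to 0.184), and leaving out any bear but 1305 ended that of NT5C3B (0.0686 to 0.0902).

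Of the 5 nucleoside diphosphate kinases tested 2 were higher and 1 lower. NME6 fell from 17.8 to 10.4 CPM (log2 fold change −0.70, adjusted p = 0.000845), and NME4, of the mitochondria and named after its value was seen, rose from 3.19 to 6.75 CPM (0.91, adjusted p = 0.00539). NME5 passed the test (adjusted p = 0.00196) with only 5 reads in the 6 summer libraries and 58 in the 6 winter ones. Of the 4 nucleoside transporters tested 1 was higher and 1 lower. SLC29A1, which lets adenosine pass the cell membrane, fell from 146 to 81.2 CPM (−0.73, adjusted p = 0.0019), in 6 of 6 bears. SLC28A1 passed (adjusted p = 0.00182) with 7 reads in the summer libraries, 4 of which had 0, and 82 in the winter ones. Folds of NME5 and SLC28A1 depend on the count added before taking logs, and none is given.

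**Figure D4:**
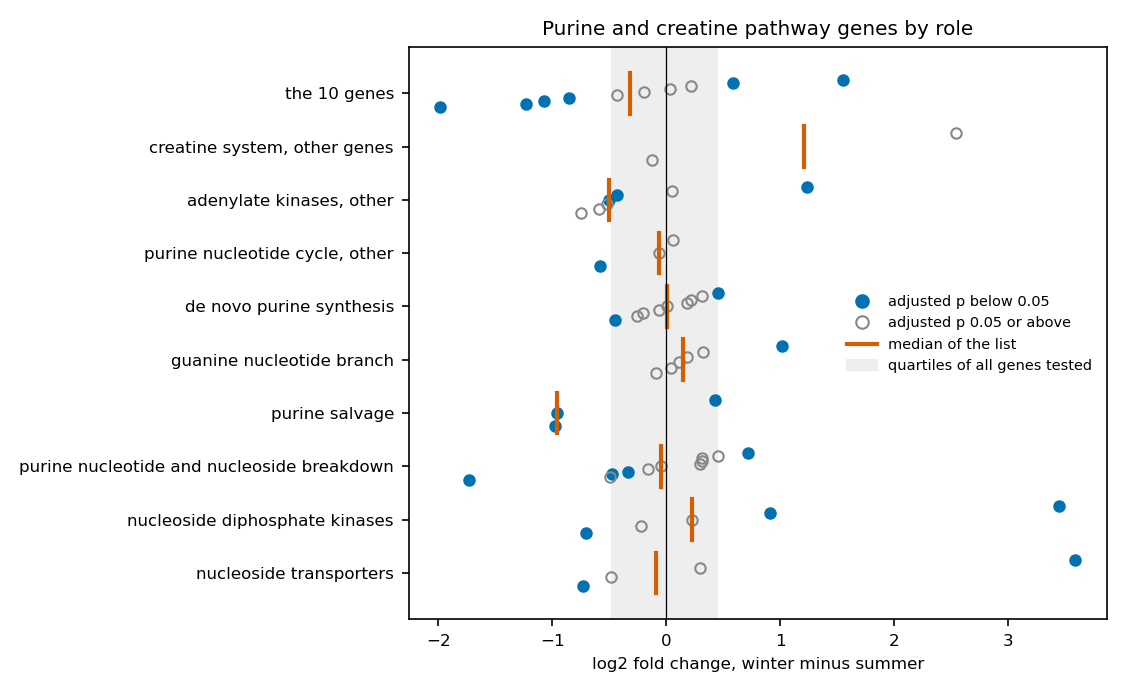
Winter minus summer log2 fold change of each tested gene of creatine and purine metabolism by role, filled where the adjusted p was below 0.05, with an orange bar for the median of each list and a grey band for the quartiles of all 17290 genes tested. The medians lie inside the band except those of the other adenylate kinases, at its edge, of purine salvage and of the 2 other creatine genes, where CKMT1B is the point above 2, and the points beyond 3 are NME5 and SLC28A1, with few reads.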

How the data were processed

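The authors prepared stranded poly-A libraries and read 1 end of each fragment over 50 bases. Alignment was with TopHat2 2.1.1 to the assembly ASM358476v1. Alignments with more than 3 mismatches were discarded, and reads on the strand opposite to a gene were counted with featureCounts 1.6.2. The deposited values are raw read counts, 1 column per library, without normalization. Columns left unused numbered 0, and rows without a gene name numbered 0.

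Only genes with at least 30 reads in total entered the fits. After TMM scaling, seasons were compared in edgeR 4.0.16 (R 4.3.3), by its quasi-likelihood test, with season as the only term and Benjamini-Hochberg adjustment over all genes tested. The standard error is the log2 fold change divided by the square root of F, and log2 CPM used a prior count of 2. The fits were tested on simulated counts that held no difference between bears, so this says nothing of the pairing. Ratios of reads were compared by exact sign-flip tests over the 6 bears. The alternatives tried were a replicate block for bear in edgeR, DESeq2 1.42.0 with and without that block, voom in limma 3.58.1, RLE scaling, library totals, other filters, stricter thresholds and each bear left out. Leaving out the winter library of bear 1509 alone, and leaving CKM out of the scaling, were added after the data were seen.

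The paper's methods state that the same bears were sampled in both seasons. After season means were subtracted, the correlation of a bear's own libraries was 0.0903 to 0.344, whereas libraries of different bears gave a median of −0.0634 and a highest value of 0.142, so the ranges overlap. The lowest chi-square per gene between libraries of a season was 42.3, so no library repeats another of its season. Libraries of different seasons were not compared in this way. Libraries were sequenced in lanes that the labels do not assign.

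The 10 genes and the pathway and marker lists were chosen with earlier results of these data known. All 10 genes are named. Of each pathway list, the called gene with the largest change in each direction was named if it changed in the same direction in at least 5 of 6 bears. Gene symbols are as deposited. A RefSeq gene table of another assembly held 9 of the 10 symbols, and its coordinates were not used. Sequences were not used here. The values of 1 other pathway gene are not reported here.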

Additional observations from a re-analysis of the deposited data

Results flagged for a closer look

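Of the 20 sets of 6 libraries (10 genes in each season) and the 6 sets of ratios, 1 held a library far from the rest by Dixon's test, which chance gives in about 1 of 20 sets. CKM in the winter library of bear 1509 lay at 15.58 log2 CPM, the lowest of its season, with the next library at 16.04 and the highest at 16.29. Its gap to the next was 0.646 of the range, above Dixon's critical value for 6 libraries. The nerve markers were at 127 CPM in the same library, and their part in the level of CKM was not tested.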

How the results depend on the processing

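Of 160 values of the 10 genes under 16 alternatives each, 152 kept their direction and their side of the threshold, including those of CKB, CKMT2, GATM, GAMT, AK1 and ADSL under each of them. CKM reversed to −0.046 with library totals, −0.060 without bear 1317 and −0.00037 without bear 1511, the range with single bears left out being −0.060 to 0.12. Of the 10 genes, 1 to 3 were higher and 4 lower as single bears were left out (1 higher without bear 1305 or 1317, where AMPD1 was lost, and 3, with SLC6A8, without the winter library of bear 1509 alone), and 1 was higher at the stricter limits. Among the other pathway genes, 8 to 9 were higher and 7 to 12 lower as single bears or the winter library of bear 1509 were left out, the 7 without bear 1305, and 6 were lower with the stricter threshold. The bear as a replicate block, which pairs the seasons, changed the call of AMPD3 (adjusted p = 0.0464) and of no other of the 10 genes, nor of any other pathway gene named by the rule. Of those named after their values were seen, XDH was lost. For the AMPD3/AMPD1 ratio, permuting without the block gave the same −1.04 and an adjusted p of 0.00649. The sign-flip test over bears gave 0.0625, where 6 pairs allow no p below 0.0312 and bear 1511 changed the other way. Permuting over libraries allows smaller p values, but it ignores the pairing. Leaving out single bears moved CKB/CKM between −2.79 and −2.08, CKMT2/CKM between −1.40 and −1.01 and AMPD3/AMPD1 between −1.26 and −0.88.

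As single bears were left out, the median log2 fold change of 9 of 12 marker lists moved by less than 1 SD over bears, although that SD was wide (2.29) for the adipocyte markers, whose median of −0.93 turned to 0.57 without bear 1316 and was −1.90 without bear 1511. The satellite cell median, −2.04 with 4 of 5 genes lower, ran from −1.55 to −1.28, the erythroid one, −0.86, from −2.84 to −0.95 and the nerve one, −0.59, from −0.996 to 0.17, reversed without bear 1305 at 0.17. The read filter was applied again in each of these fits, which tested 16764 to 16968 genes, against 17290 with all bears. CALCR of the satellite cell list and AHSP of the erythroid list had only 0 to 8 reads per library. A list could thus lose a gene, and its median could then move without a change in the other genes. How much of the moves came from this was not tested. Of the 7 leukocyte markers 2 were lower. AMPD3, CKB in winter and genes with under 100 reads per library are limited by depth.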
